A study of Mus musculus with 9 samples.

Results

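The genes described here encode small nucleolar RNAs (snoRNAs) and small Cajal body RNAs (scaRNAs). They were all genes whose probe set carried 1 symbol beginning Snora, Snord or Scarna followed by a number, and where a gene had more than 1 such probe set the one with the highest mean over the 9 arrays stood for it. This gave 78 of the 22180 genes measured, made up of 26 H/ACA genes (Snora), 47 C/D genes (Snord) and 5 scaRNA genes (Scarna). The gene table held 142 such symbols, and those without a 1-symbol probe set were not analysed here.

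C/D snoRNAs pair with ribosomal RNA and guide its 2′-O-methylation by fibrillarin, while H/ACA snoRNAs guide the change of uridine to pseudouridine by dyskerin. scaRNAs carry the same boxes, stay in Cajal bodies and guide these changes on the small nuclear RNAs of the spliceosome. In mammals most of them lie in introns of a host gene and are trimmed from the spliced and debranched intron, and a few, such as Snord118 (U8) and Snord13 (U13), are made from transcription units of their own. A few C/D and H/ACA RNAs act in the cleavage of the ribosomal RNA precursor instead of marking a base.

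RNA came from mouse NIH3T3 fibroblasts carrying hMLKL1-181-2Fv, a fusion of part of human MLKL with Fv domains. MLKL is a pseudokinase that breaches membranes in necroptosis, a lytic form of cell death. The dimerizer B/B binds Fv domains and joins the proteins that carry them. The 3 groups had 3 arrays each: cells treated with B/B at 50 nM for 1 h, sorted as annexin V-positive (AnnV+) and then kept in a washout at 3000 nM for 6 h; AnnV+ cells sorted after 1 h of the same B/B treatment; and control cells of the same line. Annexin V is a stain for phosphatidylserine on the outer face of the membrane. The labels name neither the washout compound nor a clone. They leave out whether control cells passed the sorter, when those cells were taken and whether the samples were separate cultures, so that the p-values measure the spread between these samples, which may be technical. Sorting and B/B treatment cannot be told apart in the comparisons with control.

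Values were log2 probe set levels. Array medians over all probe sets lay between 4.60 and 4.68. Of 7 fibroblast markers, none passed the test at 1 h, where Col3a1, Fn1 and Col1a1 differed by 0.21, 0.13 and −0.12 on the log2 scale. After washout 5 fell, Pdgfrb by 1.36 and Col1a2 by 0.99 on the log2 scale, while Vim and Fn1 did not pass the test. The median of the fibroblast markers was 9.56 to 9.66 on the washout arrays, 10.26 to 10.32 on the B/B 1 h arrays and 10.30 to 10.48 on the control arrays. The medians of 6 leukocyte markers were 3.90 to 3.94 on the washout arrays, 3.88 to 4.04 on the B/B 1 h arrays and 3.94 to 4.04 on the control arrays, with Ptprc, Cd3e, Itgam and Lyz2 among the lowest 30% of genes by level. Of the leukocyte markers, Cd14 and Cd68 rose at 1 h, by 0.61 and 0.51 on the log2 scale, while after washout Cd14 rose by 1.47 and Ptprc and Lyz2 fell by 0.19 and 0.30. The 5 epithelial markers had array medians of 5.18 to 5.40 on the washout arrays, 5.17 to 5.32 on the B/B 1 h arrays and 4.96 to 5.20 on the control arrays, and the 4 endothelial markers 4.50 to 4.57, 4.54 to 4.72 and 4.40 to 4.49 on the same arrays. The part of these markers in the results below was not tested. In bulk RNA, fewer cells of a type and less RNA per cell cannot be told apart, and an intronic probe set does not tell a mature snoRNA from an unspliced or excised intron of its host.

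After 6 h of washout most snoRNA genes were lower than in control cells, and none passed the test in the higher direction. Of the 78 genes, 59 fell and 0 rose (limma, Benjamini-Hochberg adjusted p under 0.05), against 11.7% of all genes that fell, 14.5% that rose and 26.2% that passed in either direction. At an unadjusted p under 0.05, 63 were lower and 1 was higher, against 3474 lower and 4057 higher of the 22180 genes. The median log2 difference was −0.52, against 0.00 over all genes, and the differences ran between −1.32 and 0.19 with 76 of 78 below 0. In 63 genes every washout array was below every control array, a pattern seen in 17.8% of all genes, and in 0 genes every washout array was above every control array, against 20.2%. When all genes were split into 10 bins by mean level and weighted as the members fall into them, 18.6% fell and 23.0% rose.

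At 1 h some of the snoRNA genes had already moved, more of them down than up. Of the 78 genes, 19 fell and 5 rose in B/B 1 h cells, against 1.88% and 1.01% of all genes and 2.89% in either direction. At an unadjusted p under 0.05 the counts were 44 lower and 9 higher, against 2287 lower and 1809 higher of the 22180 genes. The median log2 difference was −0.28, with a range of −1.97 to 0.91, against 0.00 over all genes. Every B/B 1 h array was below every control array in 39 genes and above in 9, against 12.3% and 9% of all genes. Only 15 of the 22180 genes passed the test at 1 h with a fall of 2-fold or more (0.0676%), and 7 of those 15 were snoRNA or scaRNA genes: Snora34, Snord110, Snora44, Scarna6, Snord72, Snora69 and Snord89. Another 5 of the 15 were microRNA genes, a class of short RNA described below, so that such falls were not particular to the snoRNA and scaRNA genes. Without B/B 1 h replicate 1, the array of its group with the most genes below control, 15 genes fell and 5 rose.

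Between the washout and the B/B 1 h arrays, 30 of the 78 genes were lower and 8 higher, against 12% and 16.6% of all genes and 28.6% in either direction. The arrays did not overlap in 34 lower and 8 higher genes, against 18.4% and 21.1% of all genes. The median log2 difference was −0.17, against −0.02 over all genes. The 3 comparisons share their arrays, so that the values of a gene are given side by side below and no overlap between the comparisons is given as a result.

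**Figure D1:**
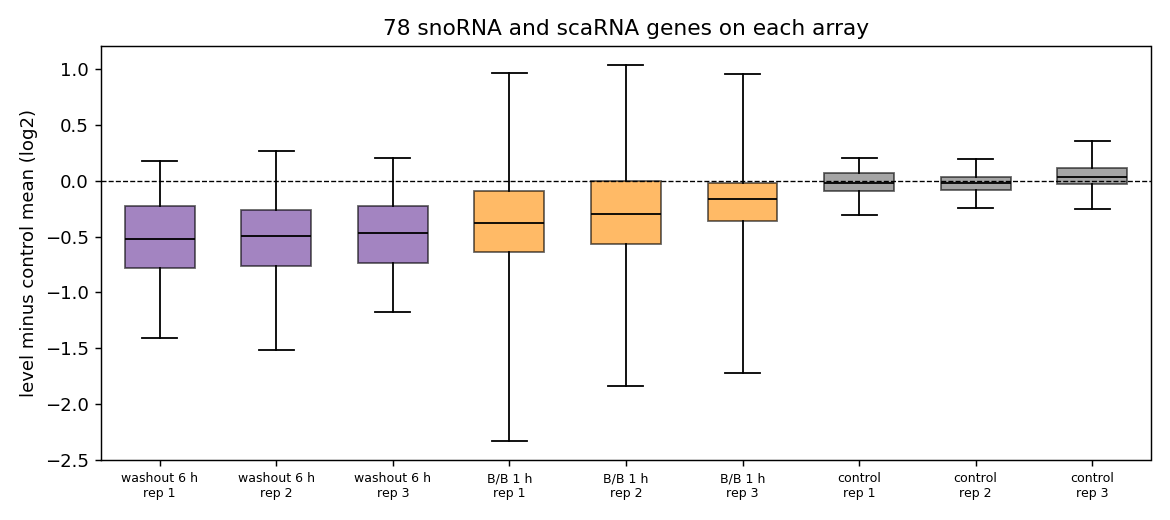
The level of the 78 snoRNA and scaRNA genes on each of the 9 arrays, as log2 level minus the control mean of the same gene; boxes span the quartiles, the line is the median and whiskers reach the lowest and highest gene. The washout arrays had 74 to 76 of 78 genes below the control mean, the B/B 1 h arrays 58 to 64 and the control arrays 28 to 46.

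The array plot shows the same shift in each library. On the 3 washout arrays 76, 74 and 74 of the 78 genes were below their control mean, and on the 3 B/B 1 h arrays 64, 58 and 59 were. Of the 78 genes, 70, 70 and 68 were below every control array on the washout arrays and 58, 52 and 47 on the B/B 1 h arrays. The share of all genes was not computed for these single-array counts, so they describe the members alone. The whiskers of the B/B 1 h arrays reach both higher and lower than those of the washout arrays.

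**Figure D2:**
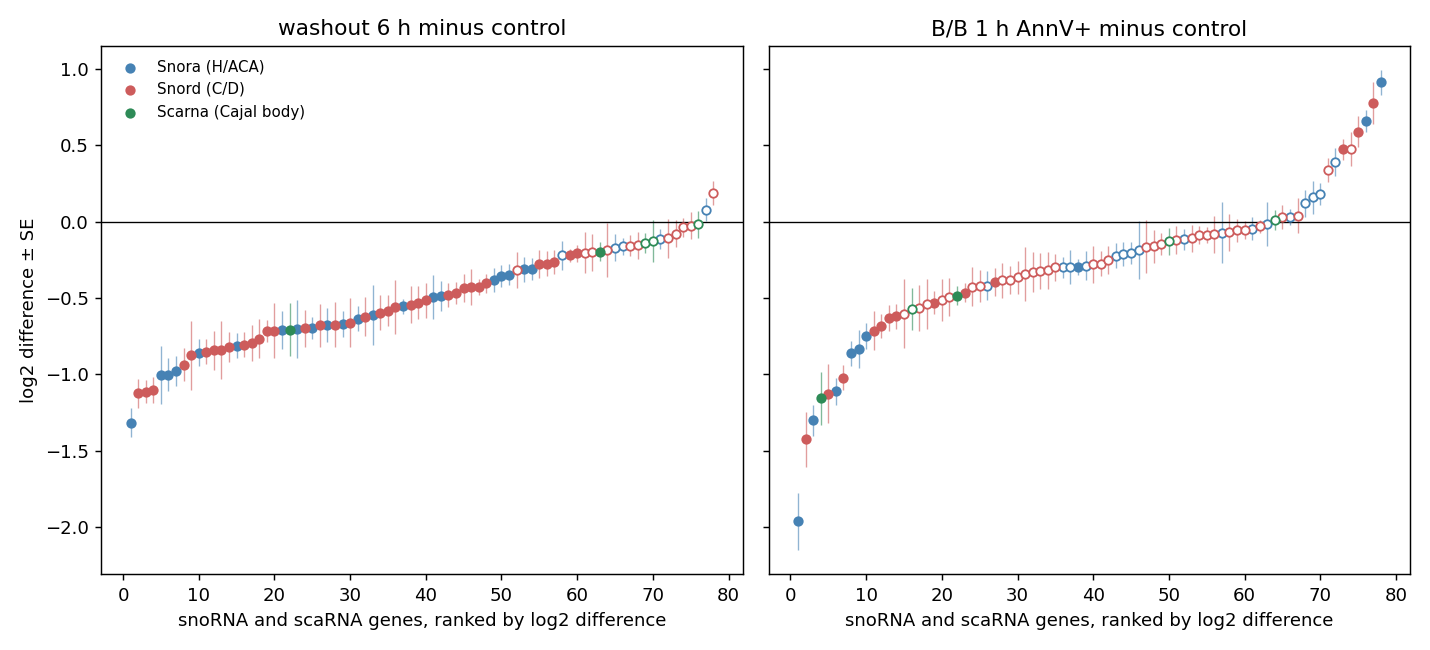
The log2 difference ± SE of each of the 78 genes, ranked from the lowest to the highest, for washout minus control (left) and B/B 1 h minus control (right), coloured by class; filled points passed the limma threshold and open points did not. After washout 59 points are filled and all lie below 0, while at 1 h 19 filled points lie below 0 and 5 above.

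Genes of all 3 classes fell after washout. Of 26 Snora genes 21 fell, with a median log2 difference of −0.58, and of 47 Snord genes 36 fell, with a median of −0.53. Of 5 Scarna genes 2 fell, with a median of −0.14. At 1 h, 7 Snora genes fell and 2 rose (median −0.21), 10 Snord genes fell and 3 rose (median −0.32), and 2 Scarna genes fell and 0 rose (median −0.48). Between washout and B/B 1 h, 10 Snora genes were lower and 3 higher, 20 Snord genes lower and 3 higher, and 0 Scarna genes lower and 2 higher. Differences between the classes were not tested. Of 472 microRNA genes, another class of short RNA, 33 fell and 15 rose after washout (median −0.02), and 17 fell and 12 rose at 1 h (median 0.01). That is 6.99% lower and 3.18% higher after washout, against 11.7% and 14.5% of all genes, and 3.60% lower and 2.54% higher at 1 h, against 1.88% and 1.01%. The array medians of the microRNA genes were 3.47 to 3.51, under the 4.04 that bounds the lowest 30% of genes by level, so that they are no like-for-like comparison with the snoRNA genes.

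Among the H/ACA genes, Snora34 had the lowest difference from control at 1 h. Its log2 level was 7.33, 6.68 and 7.31 on the washout arrays, 5.78, 6.27 and 6.39 on the B/B 1 h arrays and 8.11, 8.12 and 8.11 on the control arrays. The 3 groups did not overlap, with B/B 1 h lowest, washout between and control highest. The difference at 1 h was −1.97 ± 0.188 (SE, limma, adjusted p = 0.000513), a fold of 0.256, and after washout −1.00 (adjusted p = 0.00286). Washout was above B/B 1 h by 0.96 (adjusted p = 0.00342). In the RefSeq tables of GRCm38.p6 the last 73 bases of the Mir1291 hairpin are the first 73 of the 118 bases of Snora34 on the hairpin's strand, and in human this microRNA is known to arise from the snoRNA. The hairpin, at chr15:98519762-98519878 on the minus strand, is shown because the 2 genes share that stretch, set in capitals:
Mir1291: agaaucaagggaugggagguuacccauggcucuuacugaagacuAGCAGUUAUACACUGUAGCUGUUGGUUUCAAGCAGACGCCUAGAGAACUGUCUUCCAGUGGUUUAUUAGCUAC
Mir1291 was not among the microRNA genes measured with a 1-symbol probe set.

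Snora44 and Snora69 were also low at 1 h and then differed. Snora44 was at 7.70, 7.43 and 7.90 on the washout arrays, 7.38, 7.29 and 7.38 on the B/B 1 h arrays and 8.72, 8.62 and 8.63 on the control arrays. Both treated groups lay below every control array. Its differences from control were −1.30 ± 0.101 at 1 h (limma adjusted p = 0.000134) and −0.98 after washout (adjusted p = 7.15e-05). Washout and B/B 1 h differed by 0.32 (adjusted p = 0.0385), a call that was lost without any 1 of 8 arrays, all but washout replicate 2 (adjusted p up to 0.118). Snora69 was at 7.83, 7.99 and 7.83 on the washout arrays, 6.85, 7.00 and 6.97 on the B/B 1 h arrays and 7.96, 7.94 and 8.25 on the control arrays. Only the B/B 1 h arrays stood apart from the rest. Its difference at 1 h was −1.11 ± 0.0868 (adjusted p = 0.000136), while washout differed from control by −0.17 (adjusted p = 0.214) and from B/B 1 h by 0.94 (adjusted p = 3.06e-05).

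**Figure D3:**
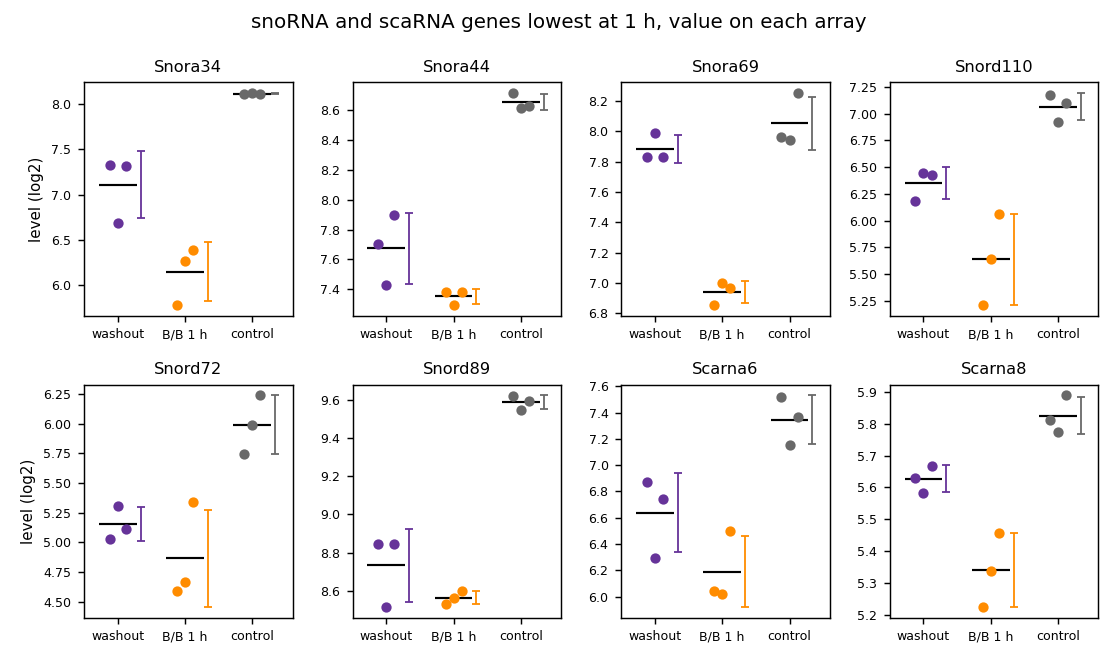
Log2 level on each array of the snoRNA and scaRNA genes that were lowest in B/B 1 h cells, with washout, B/B 1 h and control arrays from left to right; horizontal lines are group means and bars ± 1 SD of 3 arrays, and each panel has its own axis that does not start at 0. In Snora34 the B/B 1 h arrays lie at 5.78 to 6.39 and the control arrays at 8.11 to 8.12.

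The C/D genes with the lowest differences at 1 h were Snord110, Snord72 and Snord89. Snord110 was at 6.18, 6.44 and 6.43 on the washout arrays, 5.21, 5.64 and 6.06 on the B/B 1 h arrays and 7.17, 6.92 and 7.10 on the control arrays, so that all 3 groups were separate. It fell at 1 h by 1.43 ± 0.18 (limma adjusted p = 0.00306). Its washout difference of −0.71 (adjusted p = 0.015) was lost without control replicate 1 or washout replicate 1 (adjusted p up to 0.059), and its rise of 0.71 over B/B 1 h (adjusted p = 0.0141) without washout replicate 2 or 3 (up to 0.0524). Snord89, which lies in no gene of the table, was at 8.85, 8.51 and 8.85 on the washout arrays, 8.53, 8.56 and 8.60 on the B/B 1 h arrays and 9.62, 9.55 and 9.59 on the control arrays. Both treated groups lay below control and overlapped each other, with differences from control of −1.02 ± 0.0824 at 1 h (adjusted p = 0.000171) and −0.85 after washout (adjusted p = 4.72e-05).

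Snord72 was at 5.03, 5.31 and 5.12 on the washout arrays, 4.59, 4.66 and 5.34 on the B/B 1 h arrays and 5.75, 5.99 and 6.24 on the control arrays. The wide B/B 1 h group overlapped washout and lay below control. Its difference at 1 h of −1.13 ± 0.192 (limma adjusted p = 0.0151) was lost without control replicate 2 or 3 or B/B 1 h replicate 1 or 2, and with only those groups in the fit (adjusted p up to 0.0653), and its washout difference was −0.84 (adjusted p = 0.00871). Snord87 was at 8.41, 8.52 and 8.53 on the washout arrays, 8.12, 7.99 and 8.30 on the B/B 1 h arrays and 8.66, 8.80 and 8.83 on the control arrays. The 3 groups were separate, with differences from control of −0.62 at 1 h (adjusted p = 0.00381) and −0.27 after washout (adjusted p = 0.0321). The washout call of Snord87 was lost without control replicate 2 or 3 or any of the washout replicates (adjusted p up to 0.112). Snord61, among the lowest 30% of genes by level, had a difference at 1 h of −0.40 (adjusted p = 0.0499), which was lost in 13 of 19 alternatives.

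The Scarna genes that fell at 1 h were Scarna6 and Scarna8. Scarna6 was at 6.87, 6.30 and 6.74 on the washout arrays, 6.04, 6.02 and 6.50 on the B/B 1 h arrays and 7.52, 7.15 and 7.36 on the control arrays, with control above both. It fell at 1 h by 1.16 ± 0.172 (limma adjusted p = 0.00755) and after washout by 0.71 (adjusted p = 0.0122), the second of which was lost without control replicate 1 (adjusted p = 0.051). Scarna8 was at 5.63, 5.58 and 5.67 on the washout arrays, 5.22, 5.34 and 5.46 on the B/B 1 h arrays and 5.81, 5.77 and 5.89 on the control arrays. It fell at 1 h by 0.48 (adjusted p = 0.0035), and its washout difference of −0.20 (adjusted p = 0.0434) was lost in 11 of 19 alternatives, among them the removal of any 1 control or washout array or of B/B 1 h replicate 2 (adjusted p up to 0.143). Scarna17 and Scarna2 passed no test, with washout differences of −0.14 and −0.02.

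The 5 genes that rose at 1 h were Snora28, Snora23, Snord118, Snord37 and Snord55. Snora28 was at 7.77, 7.64 and 7.60 on the washout arrays, 9.45, 9.29 and 9.44 on the B/B 1 h arrays and 8.39, 8.65 and 8.41 on the control arrays. The 3 groups were wide apart, with control in the middle. It rose at 1 h by 0.91 ± 0.0813 (limma adjusted p = 0.000325), a fold of 1.88, and after washout was lower than control by −0.81 (adjusted p = 5.92e-05) and lower than B/B 1 h by −1.73 (adjusted p = 5.31e-07). Snora23 had the same order, at 9.58, 9.66 and 9.54 on the washout arrays, 11.05, 10.86 and 10.94 on the B/B 1 h arrays and 10.15, 10.34 and 10.37 on the control arrays. Its differences from control were 0.66 ± 0.0721 at 1 h (adjusted p = 0.00122) and −0.69 after washout (adjusted p = 7.54e-05).

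Snord37 was at 7.07, 7.17 and 6.84 on the washout arrays, 8.51, 8.35 and 8.46 on the B/B 1 h arrays and 7.69, 7.85 and 8.00 on the control arrays, with no overlap. The rise of 0.59 ± 0.099 (limma adjusted p = 0.0141) was lost without control replicate 2 or B/B 1 h replicate 1 (adjusted p up to 0.0589), while the washout difference from control was −0.82 (adjusted p = 0.000193). Snord55 was at 8.48, 8.37 and 8.60 on the washout arrays, 9.02, 9.15 and 9.18 on the B/B 1 h arrays and 8.59, 8.63 and 8.70 on the control arrays. Only the B/B 1 h arrays stood apart, with a rise of 0.48 ± 0.0679 over control (adjusted p = 0.00613), and washout differed from control by −0.16 (adjusted p = 0.134) and from B/B 1 h by −0.63 (adjusted p = 8.07e-05).

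**Figure D4:**
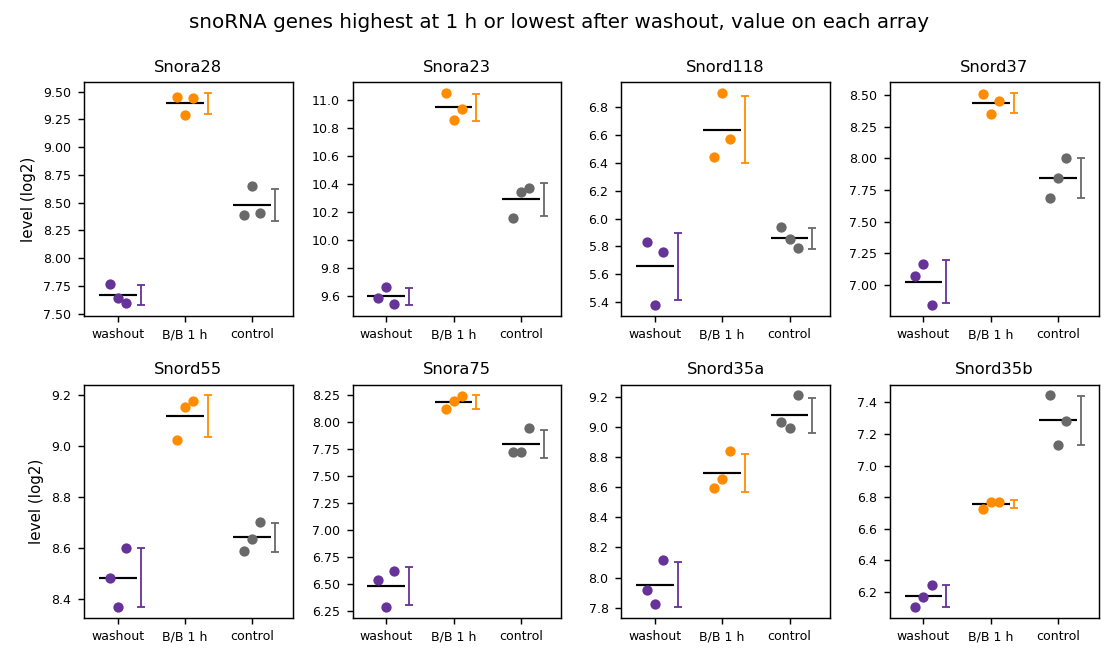
Log2 level on each array of snoRNA genes that were highest in B/B 1 h cells or lowest after washout, with washout, B/B 1 h and control arrays from left to right; horizontal lines are group means and bars ± 1 SD of 3 arrays, and each panel has its own axis that does not start at 0. In Snora28 and Snora23 the B/B 1 h arrays lie above control and the washout arrays below it, while in Snord35a and Snord35b the washout arrays lie lowest and control highest.

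After washout the lowest differences from control belonged to Snora75, Snord35a, Snord35b and Snord19. Snora75, which lies in the gene of the nucleolar protein nucleolin (Ncl), was at 6.54, 6.28 and 6.62 on the washout arrays, 8.12, 8.19 and 8.25 on the B/B 1 h arrays and 7.72, 7.72 and 7.95 on the control arrays. The washout arrays lay far below the others, and B/B 1 h lay above control without passing the test (0.39, limma adjusted p = 0.0591). The washout difference was −1.32 ± 0.093 (adjusted p = 7.29e-06), a fold of 0.402. Snora31 was at 5.82, 5.89 and 6.08 on the washout arrays, 6.84, 7.14 and 7.29 on the B/B 1 h arrays and 6.90, 6.89 and 7.00 on the control arrays. Washout alone stood apart, with a difference from control of −1.00 ± 0.109 (adjusted p = 0.000101) against 0.16 at 1 h (adjusted p = 0.47).

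Snord35a, Snord35b and Snord19 were ordered in steps, with washout lowest, B/B 1 h between and control highest. Snord35a was at 7.92, 7.82 and 8.11 on the washout arrays, 8.59, 8.66 and 8.84 on the B/B 1 h arrays and 9.03, 8.99 and 9.21 on the control arrays. It belongs to the snoRNAs in Rpl13a introns, a group known in rodent cells for a part in lipotoxic and oxidative stress, and was the only 1 of the 4 with a 1-symbol probe set. Its differences from control were −0.38 at 1 h (limma adjusted p = 0.0634) and −1.13 ± 0.0929 after washout (adjusted p = 1.87e-05). Snord35b was at 6.10, 6.17 and 6.25 on the washout arrays, 6.73, 6.77 and 6.77 on the B/B 1 h arrays and 7.45, 7.13 and 7.28 on the control arrays, with differences from control of −0.53 (adjusted p = 0.00566) and −1.11 ± 0.0747 (adjusted p = 5.34e-06). Snord19 was at 3.53, 3.73 and 3.57 on the washout arrays, 4.06, 4.01 and 4.17 on the B/B 1 h arrays and 4.85, 4.75 and 4.54 on the control arrays. In all 3 genes the groups did not overlap, and Snord19 differed from control by −0.63 at 1 h (adjusted p = 0.00456) and −1.10 ± 0.0855 after washout (adjusted p = 1.29e-05).

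The snoRNAs that act in precursor cleavage had 5 of 12 members measured, of which 1 rose at 1 h, against 1.01% of all genes, and 3 fell after washout, against 11.7% of all genes and 59 of the 78 members. Snord118 (U8), needed for the 5.8S and 28S ribosomal RNAs, was at 5.83, 5.38 and 5.76 on the washout arrays, 6.44, 6.90 and 6.57 on the B/B 1 h arrays and 5.94, 5.85 and 5.79 on the control arrays. Only B/B 1 h stood apart, and its rise of 0.78 ± 0.136 (limma adjusted p = 0.017) was lost without control replicate 2 or 3 (adjusted p up to 0.074). Snord22 (U22), needed for the 18S ribosomal RNA, was at 6.21, 6.27 and 6.27 on the washout arrays, 7.00, 7.17 and 7.55 on the B/B 1 h arrays and 6.82, 6.74 and 6.73 on the control arrays. Washout lay below both other groups, by −0.51 against control (adjusted p = 0.00718) and −0.99 against B/B 1 h (adjusted p = 0.000121), and B/B 1 h differed from control by 0.48 (adjusted p = 0.0595).

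Snora73a and Snora73b (U17), also of 18S processing, fell after washout by 0.36 and 0.31 (limma adjusted p = 0.00367 and 0.0174). The call of Snora73b was lost without control replicate 1 or 2 or washout replicate 2 (adjusted p up to 0.0593), and neither gene passed at 1 h. The 2 are near copies, and their probe sets may share signal. Snord13 (U13) passed no test, at 9.94, 9.72 and 9.93 on the washout arrays, 10.16, 9.84 and 9.95 on the B/B 1 h arrays and 10.20, 10.18 and 9.81 on the control arrays, which overlapped. Of the 10 snoRNAs of Gas5 introns Snord47 was measured, and it fell after washout by 0.60 (adjusted p = 0.0034). None of the C/D genes of the imprinted loci had a 1-symbol probe set.

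Genes were also named for the highest mean level in their class. After washout Snora33 fell by 0.38 (limma adjusted p = 0.00502), Snora21 by 0.68 (adjusted p = 0.00126), Snord104 by 0.22 (adjusted p = 0.00373) and Snord49b by 0.47 (adjusted p = 0.000907). Snord16a fell by 0.21 (adjusted p = 0.0236), a call lost without control replicate 3 or washout replicate 2 or 3 (adjusted p up to 0.0832). Against B/B 1 h, Snora21 fell by 0.38 (adjusted p = 0.0275), a call lost without B/B 1 h replicate 2 or 3 or any of the washout replicates, or with arrays centred on their medians (adjusted p up to 0.0954). None of these 5 genes passed at 1 h.

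Host genes were set beside their snoRNAs where the RefSeq gene table placed a member inside exactly 1 other gene, which was so for 68 members. For 58 of these the host was measured, giving 44 distinct hosts. After washout 7 hosts rose (15.9%) and 10 fell (22.7%), against 14.5% and 11.7% of all genes, with a median log2 difference of −0.03. At 1 h 3 rose (6.82%) and 2 fell (4.55%), against 1.01% and 1.88% of all genes, with a median of −0.01. Of the members that fell after washout, 25 had a host that did not pass the test, 13 a host that fell and 9 a host that rose. At 1 h, 1 falling member had a falling host (Snord72 in Rpl37, a ribosomal protein gene at −0.55, adjusted p = 0.012 in limma, lost with only those 2 groups in the fit, adjusted p = 0.0558) and 15 a host that did not pass. Several members share a host, so these counts are not over independent genes. The ribosomal protein hosts differed in level, with Rpl37 at a mean of 6.88, Rpl39 at 6.10 and Rpl17 at 4.95. Rpl3, Rpl4 and Rpl32 were at 11.8, 12.3 and 12.1. Whether the probe sets with low values read the whole host transcript was not tested.

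**Figure D5:**
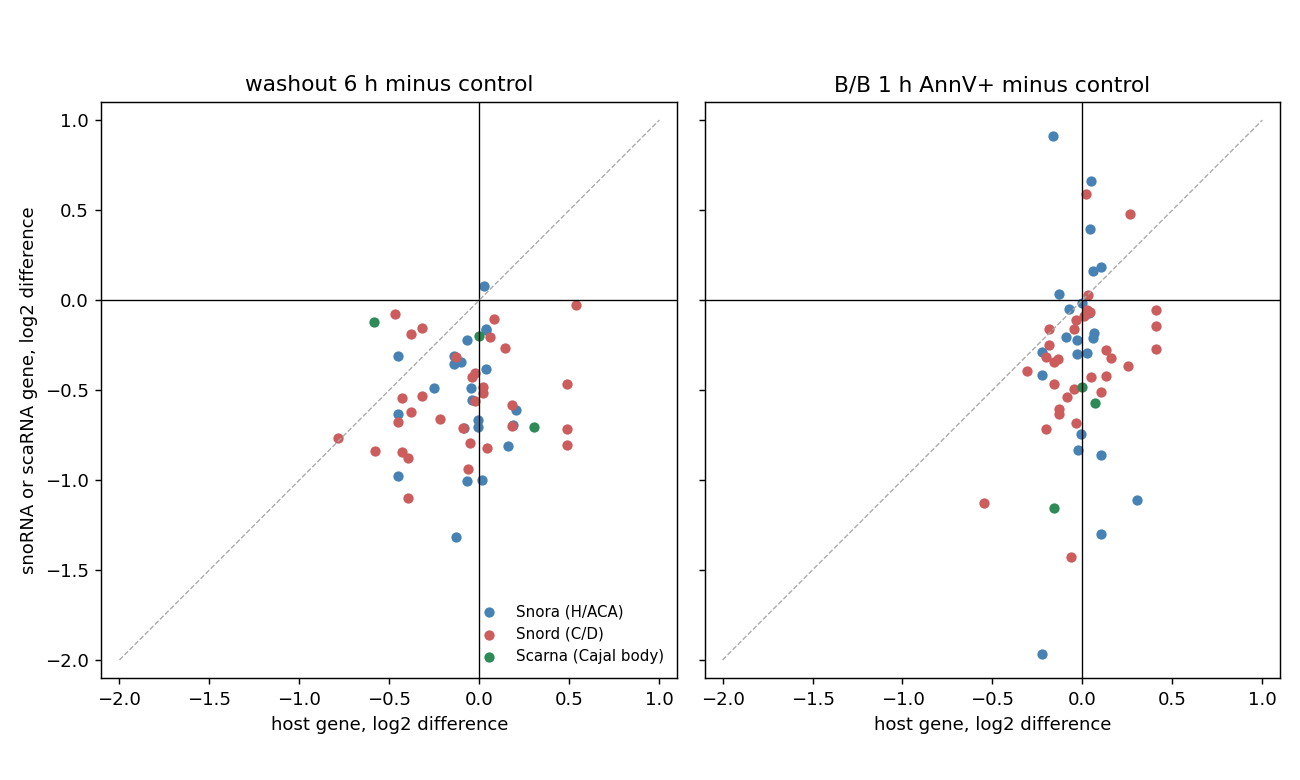
Log2 difference of each of the 58 members with a measured host (vertical axis) against that of its host gene (horizontal axis), for washout minus control (left) and B/B 1 h minus control (right); colours give the class and the dashed line marks equal differences. The hosts lie on both sides of 0 in both panels, while members lie mostly below 0 after washout and between −1.97 and 0.91 at 1 h.

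Host values are given beside those of their snoRNAs. Kansl2, a subunit of the NSL chromatin complex that holds Snora34, was at 9.43, 9.57 and 9.56 on the washout arrays, 9.28, 9.38 and 9.44 on the B/B 1 h arrays and 9.55, 9.60 and 9.62 on the control arrays, a difference of −0.23 at 1 h (limma adjusted p = 0.068), where its snoRNA differed by −1.97. The 1 h difference of Kansl2 ran between −0.26 and −7e-05 over the alternatives. It passed with the lowest 30% of genes left out and with a variance trend. Eif5, a translation initiation factor that holds Snora28, differed from control by −0.16 at 1 h without passing and rose by 0.16 after washout (adjusted p = 0.017), a rise lost without control replicate 2 or washout replicate 1 (adjusted p up to 0.0587). Ipo7, a nuclear import receptor that holds Snora23, did not pass at 1 h and rose after washout by 0.19 (adjusted p = 0.0077), while Snora23 fell. Ncl, the host of Snora75, differed by −0.13 after washout (adjusted p = 0.051), and Snord82 in the same gene differed by −0.32 after washout without passing.

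The other named hosts ranged in sign. The translation elongation factor Eef2 (Snord37) and Tpt1 (Snora31) passed no test, nor did Rpl39 (Snora69), which differed by 0.31 at 1 h. Nop56 (Snord110), itself a core C/D protein, passed no test on the probe set that stood for it. With its probe sets averaged, Nop56 passed against control, at −0.38 at 1 h and −0.25 after washout. Washout then differed from B/B 1 h by 0.130 (limma adjusted p = 0.0418). Gnl3 (nucleostemin), which holds Snord19, fell after washout by 0.40 (limma adjusted p = 5.8e-05). Atg16l1, an autophagy gene that holds Scarna6, rose after washout by 0.30 (adjusted p = 0.0051) while Scarna6 fell. The noncoding gene 2410006H16Rik rose at 1 h by 0.41 (adjusted p = 0.00299) and after washout by 0.48 (adjusted p = 8.3e-05). Its members Snord49a, Snord49b and Snord65 differed from control by −0.27 to −0.06 at 1 h, none past the threshold, and by −0.81 to −0.47 after washout. Rbmx, an RNA-binding protein gene that holds Snord61, fell after washout by 0.47. Snhg1 (Snord22) rose at 1 h by 0.26 (adjusted p = 0.0401), a call lost in 12 of 19 alternatives, while Rps12 (Snora33), Rpl4 (Snord16a), Haus6 (Scarna8) and Snhg3 (Snora73a and Snora73b) passed no test.

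Snhg12, a long noncoding RNA gene, was the host with the most measured members, 4. It was at 7.35, 7.33 and 7.32 on the washout arrays, 7.92, 7.87 and 7.87 on the B/B 1 h arrays and 7.68, 7.82 and 7.85 on the control arrays, and fell after washout by 0.45 (limma adjusted p = 0.00011). At 1 h its own difference was 0.10, while Snora44 fell by 1.30 and Snora16a by 0.86 (adjusted p = 0.000482), Snord99 differed by −0.51 without passing and Snora61 by 0.18 (adjusted p = 0.223). Snora61 was at 7.00, 6.74 and 6.80 on the washout arrays, 7.42, 7.23 and 7.36 on the B/B 1 h arrays and 7.14, 7.14 and 7.19 on the control arrays. Its B/B 1 h arrays thus lay above control, where those of Snora44 lay below. After washout all 4 were lower than control, with differences of −0.98 to −0.31. Snora16a, Snora61 and Snord99, and Snord82 above, were named after their values were seen, for the host they share with a named gene.

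By kind of host, 15 of 16 members in long noncoding genes fell after washout (median −0.57), 16 of 18 in ribosomal protein genes (median −0.56), 23 of 34 in other protein-coding genes (median −0.58), 1 of 4 with no host in the table and 4 of 6 inside several genes, against 11.7% of all genes. By length, 26 of 36 members under 75 bases fell, 10 of 14 of 75 to 99 bases and 23 of 28 of 100 bases or more. At 1 h, 2, 6, 9, 1 and 1 fell and 0, 1, 3, 1 and 0 rose in the same order of hosts, and 8, 2 and 9 fell and 1, 1 and 3 rose in the same order of lengths, against 1.88% and 1.01% of all genes.

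Many snoRNA host genes and ribosomal protein genes are known to start at a pyrimidine-rich stretch (the TOP motif). The 60 bases around the start of a host, 40 before and 20 after it, were read from the RefSeq promoter table of GRCm38.p6, and the letters CTTTC were searched on the sense strand as a simple form of such a stretch. The search took the 42 hosts with a start in that table, measured or not, so these are not the 44 measured hosts above. The letters were found in 7 of the 42 hosts (16.7%) and in 2153 of 27025 genes of the table (7.97%), and on the other strand in 2.38% and 6.99%. Of the 7, Rpl13a, Gm36220 and Snhg16 were not among the measured hosts. A match is a description of the letters and not of a start site in use. A window without these letters may still hold another pyrimidine-rich stretch, so their absence does not show that a host lacks the motif. The starts of the hosts of Snora44, Snora23, Snora28, Snora34 and Snord37 are shown because these snoRNAs moved in opposite directions at 1 h, with CTTTC in capitals. They lie at chr4:132308638-132308697 (plus strand), chr7:110018275-110018334 (plus), chr12:111538061-111538120 (plus), chr15:98534250-98534309 (minus) and chr10:81176591-81176650 (plus):
Snhg12: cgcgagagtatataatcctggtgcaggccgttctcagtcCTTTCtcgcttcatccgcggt
Ipo7: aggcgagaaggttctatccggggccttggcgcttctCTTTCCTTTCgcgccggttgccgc
Eif5: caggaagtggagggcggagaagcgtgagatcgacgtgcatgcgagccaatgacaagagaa
Kansl2: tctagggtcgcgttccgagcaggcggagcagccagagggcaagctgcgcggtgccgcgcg
Eef2: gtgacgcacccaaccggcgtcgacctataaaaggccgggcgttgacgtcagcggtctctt
The starts of Snhg12 and Ipo7 hold the letters and the other 3 do not, and Snora44 fell while Snora23 rose at 1 h.

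The protein genes of the particles were read from lists of core, assembly, Cajal body and decay factors, and the counts below stand against 2.89% of all genes that passed at 1 h and 26.2% after washout. In lists this short, 0 passing at 1 h is close to what the share over all genes gives. Of the 3 measured core C/D proteins none passed at 1 h, although Nop56 did with its probe sets averaged (−0.38). Nop58, a scaffold of the C/D particle, fell after washout by 0.38 (limma adjusted p = 0.00016), at 9.31, 9.36 and 9.41 on the washout arrays, 9.64, 9.72 and 9.72 on the B/B 1 h arrays and 9.74, 9.73 and 9.75 on the control arrays. Of 4 core H/ACA proteins none passed at 1 h and 2 fell after washout, Nop10 by 0.39 (adjusted p = 0.00039) and Nhp2 by 0.15 (adjusted p = 0.016). The call of Nhp2 was lost without control replicate 2 or washout replicate 1 or with arrays centred on their medians (adjusted p up to 0.0619). Of 11 assembly factors, 1 fell at 1 h (Nop9, −0.29, adjusted p = 0.046, lost in 12 of 19 alternatives), and after washout 1 rose and 3 fell, among them Rrp9 (−0.33) and Ruvbl2 (−0.30), an ATPase that helps load the core proteins. In 7 of the 11 every B/B 1 h array was below every control array, against 12.3% of all genes.

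Of 7 Cajal body and related proteins none passed at 1 h, and 2 rose and 2 fell after washout, against 14.5% and 11.7% of all genes. Gemin2, of the SMN complex that assembles spliceosomal particles, was at 7.12, 7.24 and 7.17 on the washout arrays, 6.57, 6.71 and 6.50 on the B/B 1 h arrays and 6.48, 6.74 and 6.58 on the control arrays, and rose by 0.58 over control (limma adjusted p = 0.00033). Tcof1 (treacle) and Nolc1, nucleolar phosphoproteins, fell by 0.31 and 0.28. Of 9 measured maturation and decay factors, 1 fell at 1 h, and 2 rose and 3 fell after washout. Dis3, a nuclease of the exosome, fell by 0.25 at 1 h (adjusted p = 0.0093) and by 0.47 after washout (adjusted p = 2.1e-05), while Exosc3, an exosome subunit, and Tgs1, which trimethylates the cap of independently transcribed snoRNAs, rose after washout by 0.28 and 0.27. Between washout and B/B 1 h, 4 of the 11 assembly factors were higher and 4 lower, and 4 of the 7 Cajal body proteins higher and 2 lower. Of the 9 maturation and decay factors 2 were higher and 3 lower. Of the core proteins, 1 of 3 C/D and 2 of 4 H/ACA were lower and 0 higher. Over all genes 16.6% were higher and 12% lower. The calls of Coil, Rpap3, Rrp9, Nhp2 and Nop9 in this comparison were lost in some alternatives.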

How the data were processed

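The 9 arrays were read from the deposited table of log2 probe set values. Trizol was used for extraction and biotinylated cRNA was hybridised, per the labels' protocols. The submitters' processing notes name Partek 6.6. The method of summary and normalization is not given in the sources used here, and base 2 was inferred from the range of values, a limit of every fold. Of 41345 probe sets, 23521 had 1 symbol, 1814 several and 16010 none; the first gave 22180 genes, of which 78 were snoRNA or scaRNA genes from 81 probe sets. No detection calls were used.

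Group means over all 9 arrays were fitted with limma 3.58.1 (R 4.3.3; statmod 1.5.0), with Benjamini-Hochberg adjusted p under 0.05 over all genes within each comparison as the threshold, 6 residual and 3.38 prior degrees of freedom and a median SE of 0.0636 on the log2 scale. Precision is limited by having 3 arrays per group. The code was tested on simulated data. Members and lists were chosen with earlier results of these data known.

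Named members were, per comparison and class, the 3 highest and 3 lowest past the threshold without overlap of groups, the 3 of highest mean level per class, and the precursor cleavage and Rpl13a lists; protein genes were up to 3 per list and comparison. Hosts were matched by position in the GRCm38.p6 gene table without strand, which the table does not give, and a search of snoRNA genes for the C box was not run, since no snoRNA sequence was used. Alternatives were quantile normalization, arrays centred on their medians, the lowest 30% of genes left out, probe sets averaged or each tested on its own, a variance trend, a robust prior, array weights, only 2 groups in the fit, a threshold of 0.01, and each array removed in turn. Where each probe set was tested on its own, the probe set with the highest adjusted p stood for a named gene. Members sharing a host with a named gene, and protein genes, were added to the genes put through these alternatives after the data were seen. The groups by length of the RNA were set after the data were seen. The CTTTC search was not part of the plan, which named only the C box as a motif.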

Additional observations from a re-analysis of the deposited data

How the results depend on the processing

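At 1 h 24 members passed, 18 to 36 over the alternatives and 19 to 33 with 1 array left out. After washout 59 passed, 43 to 60 over the alternatives and 48 to 59 with 1 array left out, and none was higher except 1 without control replicate 1. Between washout and B/B 1 h 38 passed, 24 at adjusted p under 0.01 and 29 to 38 with 1 array left out. The shares of all genes under these settings are not given here, so the ranges describe the members alone. The member median lay between −0.35 and −0.21 at 1 h, −0.55 and −0.47 after washout and −0.22 and −0.12 between washout and B/B 1 h with 1 array left out. Of 118 called gene and comparison pairs among the named genes, 89 were never lost, 29 were lost somewhere and 0 turned sign. Of 80 uncalled pairs, 28 were gained somewhere and 22 turned sign. The cause was not tested. No paired analysis was possible because the labels give no replicate numbers. No detection calls were used, and 6 members lay among the lowest 30% of genes by level, where signal over background may be small.

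The values that turned sign were all of uncalled pairs. At 1 h, Haus6 was 0.0153 with quantile normalization and 0.0016 with array weights, and Snord82 was 0.0021 with array weights. With probe sets averaged, Rpl4 was −4e-05, Rps12 −0.0029, Scarna17 −0.036 and Snora33 0.0126. Where each probe set was tested on its own, only the probe set of a gene with the highest adjusted p was read. Read so, Rpl4 was −0.025, Rps12 −0.017, Snora33 0.237 and Tpt1 −0.0119. Scarna17 was −0.0039 with arrays centred. After washout, Haus6 was 0.0141 with quantile normalization and 0.0217 centred, and Scarna2 0.0066 centred. Rpl4 was −0.068 and Tpt1 −0.00051 with probe sets averaged, and Rps12 −0.0012 and Tpt1 −0.0169 on their own. Between washout and B/B 1 h, quantile normalization gave Haus6 −0.0012, Nop56 0.0185 and Rps12 0.0019, and array weights gave Haus6 −0.0025. Centring gave Nop56 0.0117, Rpl37 0.0080 and Rps12 0.0158, averaging gave Nop56 0.130, Rpl4 −0.068 and Rps12 0.0060, and single probe sets gave Kansl2 −0.043 and Rps12 0.0158.

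With 1 array left out, the 1 h value of Haus6 ran between −0.0203 and 0.0093, of Scarna17 between −0.0223 and 0.0624 and of Snord82 between −0.194 and 0.0824. After washout, Haus6 ran between −0.0386 and 0.0270, Rpl39 between −0.0481 and 0.177, Scarna2 between −0.0642 and 0.0175, Snhg1 between −0.0181 and 0.0550 and Tpt1 between −0.0119 and 0.0413. Between washout and B/B 1 h, Haus6 ran between −0.0334 and 0.0323, Rpl37 between −0.0950 and 0.0060, Scarna2 between −0.0032 and 0.177 and Snora73a between −0.120 and 0.0075.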

Other observations

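Probe sets that carried several symbols, at least 1 of them a snoRNA or scaRNA, were kept out of the 78 genes and fitted apart with all 1814 probe sets of several symbols. The 46 such probe sets held 31 distinct sets of values. Of these 31, 20 fell and 0 rose after washout, with a median log2 difference of −0.43, and 13 fell and 0 rose at 1 h, with a median of −0.31 (limma, Benjamini-Hochberg adjusted p under 0.05). Over all probe sets of several symbols 11.9% fell after washout and 3.36% at 1 h. Between washout and B/B 1 h, 5 of the 31 were lower (16.1%) and 1 was higher (3.23%), against 10.3% and 13.7% of all probe sets of several symbols. No gene is named from them.

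Of the 3 members with 2 probe sets, Snora19 had identical values on both. The second probe set of Scarna17 fell after washout by 0.29 (limma adjusted p = 0.0155), where the first differed by −0.14 without passing. The second probe set of Snora33 differed at 1 h by 0.24, where the first differed by −0.21, and neither passed. After washout it fell by 0.78 and the first by 0.38.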
